A study of Homo sapiens with 8 samples.

Results

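The genes described here are 43 effector genes of monocytes and granulocytes, among 60196 gene symbols. The count tables came from 2 human acute myeloid leukaemia cell lines. The 43 genes were listed by symbol for their known roles, with earlier results of these data known. They encode granule proteases and other stored proteins, subunits of the NADPH oxidase, receptors for colony-stimulating factors, Fc receptors with their adaptors, integrins, lectins and other surface proteins. Neutrophils and monocytes kill microbes with granule proteins that are synthesised on the endoplasmic reticulum and stored, and with an oxidase that makes superoxide. Immature myeloid cells transcribe the genes of the primary granules, whereas Fc receptors, integrins and inhibitory lectin-type receptors govern adhesion, uptake and signalling of the mature cells. P-bodies are membrane-less granules of the cytoplasm in which mRNAs are stored, mostly untranslated, together with decay and repressor proteins.

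RNA was sequenced from 4 groups of 2 libraries each, which were MOLM-13 P-body, MOLM-13 cytosol, HEL P-body and HEL cytosol. MOLM-13 is an acute monocytic leukaemia line and HEL is an erythroleukaemia line. Both were grown untreated in serum-supplemented medium, and the labels list no genetic change or treatment in any group. The P-body RNA of each line was set against the cytosolic fraction of the same line, and the cytosolic level was set between the lines. The sources used here do not give the method of P-body isolation. The labels do not say whether the libraries of a group stem from separate cultures, and p-values therefore reflect only the spread among libraries, possibly technical.

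The libraries held 9868469 to 11000536 counts in MOLM-13 P-bodies, 5897625 to 7098927 in MOLM-13 cytosol, 17058567 to 18071473 in HEL P-bodies and 13153551 to 15569634 in HEL cytosol. In sums over each set, the lines carried the markers of their known lineages, and MOLM-13 also carried some of the lymphoid markers. A set of 8 monocytic and granulocytic markers outside the 43 genes summed to 361 to 396 CPM, which are counts scaled to a common library size with TMM factors, in the MOLM-13 libraries, against 90.9 to 99.2 CPM in the HEL libraries, where IRF8 was at 0 in both groups, CD14 in P-bodies and CEBPE in cytosol. A set of 12 erythroid and megakaryocytic markers summed to 26.8 to 34.5 CPM in MOLM-13, against 1345 to 2594 CPM in HEL. In MOLM-13, HBG1 was at 0 in both groups, GYPB, HBZ and PF4 in P-bodies, and GATA1, HBG2 and ITGA2B in cytosol. A set of 6 lymphoid markers summed to 112 CPM in both MOLM-13 P-body libraries and to 181 to 183 CPM in MOLM-13 cytosol. There CD3E was at 0 in both groups and MS4A1 in cytosol. Of the 6, 3 passed the filter on low counts described below in MOLM-13, and the sum was not split by gene. In HEL the 6 summed to at most 2.23 CPM in any library. In the cytosol test described below, 7 of the 8 monocytic and granulocytic markers were called higher in MOLM-13 than in HEL, and 1 lower. All 12 erythroid and megakaryocytic markers were called lower, and of 4 lymphoid markers tested 3 were called higher and 1 lower. Mitochondrially encoded mRNAs moved with the fraction. The 6 listed summed to 4186 to 4267 CPM in P-bodies and 6567 to 7486 CPM in cytosol of MOLM-13, and to 3306 to 3611 CPM in P-bodies and 5120 to 5709 CPM in cytosol of HEL. A set of 5 nuclear-retained RNAs summed to 3298 to 3323 CPM in P-bodies and 4933 to 5221 CPM in cytosol of MOLM-13, while in HEL the ranges overlapped, at 728 to 788 CPM in P-bodies and 723 to 796 CPM in cytosol. By gene, 3 of 4 tested nuclear-retained RNAs were called lower in P-bodies in each line. Their median log2 change was -0.50 in MOLM-13 and -0.61 in HEL. The part of the mitochondrial and nuclear-retained RNAs in the differences below was not tested.

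More of the effector mRNAs that could be tested were lower than higher in P-bodies, relative to cytosol. Of the 43 genes, 38 passed the filter on low counts in MOLM-13 and 19 in HEL. A gene was called where the adjusted p of edgeR's quasi-likelihood test was below 0.05, after Benjamini-Hochberg adjustment over all genes tested in that line. In MOLM-13, 8 of the 38 tested genes were called higher in P-bodies and 20 lower. Among all 14089 genes tested in MOLM-13, 32.4% were called higher and 28.5% lower, so the share of these genes that was higher lay below the background and the share that was lower lay above it. In HEL, 2 of the 19 tested genes were called higher and 11 lower, where 27.5% of all 14772 tested genes were higher and 27.1% lower (54.6% in either direction, against 60.8% in MOLM-13). The HEL count of 11 lower genes was 7 without HEL P-body replicate 1 and 7 under DESeq2. Scaling by library totals gave 4 higher and 26 lower in MOLM-13, where 20.6% of all genes were then higher and 50.8% lower, and 2 higher and 13 lower in HEL, where 18.7% were higher and 45.8% lower. The median log2 change of the tested effector genes, P-body over cytosol, was -0.34 in MOLM-13 and -0.36 in HEL, against -0.04 and -0.06 for all genes tested in MOLM-13 and in HEL. The counts held no spike-in, and all changes are relative to the other mRNAs of a library.

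In summed counts, as a share of library totals, the genes took less of P-body than of cytosolic libraries. On that scale the median log2 change of all genes tested was also negative, at -0.47 in MOLM-13 and -0.39 in HEL. All 43 genes together took 0.431% ± 0.0048 of counts in MOLM-13 P-bodies and 0.898% ± 0.016 in MOLM-13 cytosol (SD, n = 2 each). The 5 primary granule genes alone took 0.212% ± 0.0057 in MOLM-13 P-bodies and 0.547% ± 0.024 in MOLM-13 cytosol. In HEL the 43 genes took 0.0691% ± 0.0022 of counts in P-bodies and 0.125% ± 0.0018 in cytosol (SD, n = 2 each). The 5 genes not tested in MOLM-13 were FCN1, S100A12, CSF2RA, CD68 and CD163. S100A12, a calcium-binding alarmin, and CSF2RA, the binding subunit of the GM-CSF receptor, had 0 counts in all 8 libraries, and CSF2RA stood on 2 rows of each table. How reads shared by these 2 rows were counted is not known, so 0 counts do not show that CSF2RA was absent. FCN1, a secreted pattern-recognition lectin, CD68, a lysosomal membrane glycoprotein of macrophages, and CD163, the haemoglobin scavenger receptor, had at most 7 counts in any library. Another gene on the same strand overlaps 81.7% of the exonic bases of CD68. How shared reads were counted is not known, so the low counts of CD68 do not show that it was absent.

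**Figure D1:**
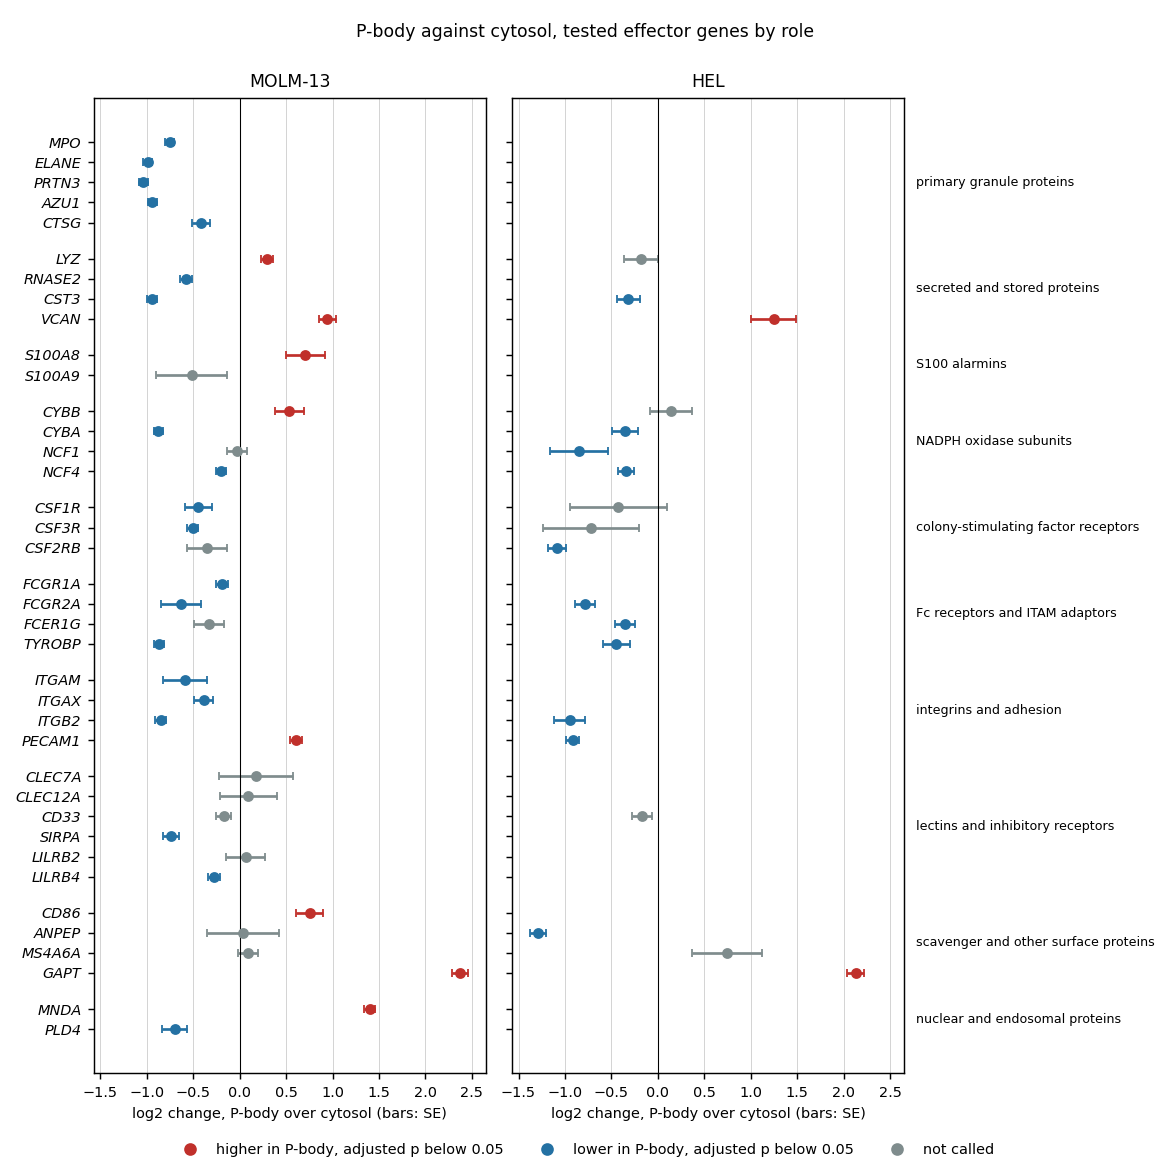
Log2 change of each tested effector gene, P-body over cytosol, in MOLM-13 (left) and HEL (right), by role; points are edgeR estimates and bars are 1 standard error, from 2 libraries per fraction. GAPT stands farthest to the right in both lines, and PECAM1 lies to the right of 0 in MOLM-13 and to the left of 0 in HEL.

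The genes that were higher and those that were lower differed in base composition, in the coding sequence and in the whole transcript. The share of codons ending in G or C, taken from the GENCODE 29 transcript with the longest coding sequence, had a median of 44.0% over the 8 genes higher in MOLM-13 P-bodies and 73.5% over the 20 lower genes. This was also the pattern of the whole table, where the medians were 42.3% over 4199 higher coding genes and 73.7% over 3198 lower ones. Across the 38 tested effector genes, Spearman's rho between this share and the log2 change in MOLM-13 was -0.76, and across 11211 coding genes it was -0.72. In HEL rho was -0.67 across 19 effector genes and -0.63 across 11925 coding genes. For GC content of the whole transcript, rho in MOLM-13 was -0.66 across the effector genes and -0.72 across coding genes. In HEL it was -0.73 and -0.67. Median transcript GC content was 42.2% over the genes higher in MOLM-13 P-bodies and 57.9% over the lower ones. The part of codon position apart from transcript GC content was not tested. These are descriptions across genes of the same libraries, and genes are not independent replicates.

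The first 90 bases of 4 coding sequences show the contrast between the largest rises and the abundant granule mRNAs that were lower. They are given 5′ to 3′ from GENCODE 29 on GRCh38, with capitals marking a G or C at the last position of a codon. GAPT (chr5:58491435-58497090, plus strand) and MNDA (chr1:158831317-158849506, plus strand) were higher in P-bodies, and PRTN3 (chr19:840960-848175, plus strand) and AZU1 (chr19:825097-832018, plus strand) were lower.
GAPT: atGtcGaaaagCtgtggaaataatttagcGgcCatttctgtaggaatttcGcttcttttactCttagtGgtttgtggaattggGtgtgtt
MNDA: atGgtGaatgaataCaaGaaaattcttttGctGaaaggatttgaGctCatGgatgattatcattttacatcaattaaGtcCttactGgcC
PRTN3: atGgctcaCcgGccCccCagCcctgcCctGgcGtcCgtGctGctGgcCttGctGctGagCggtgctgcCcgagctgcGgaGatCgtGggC
AZU1: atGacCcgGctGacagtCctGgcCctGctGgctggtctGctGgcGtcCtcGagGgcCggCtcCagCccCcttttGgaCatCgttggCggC
Of these 30 codons, 9 end in G or C in GAPT and 13 in MNDA, against 24 in PRTN3 and 25 in AZU1. Over the whole coding sequence the share was 36.9% in GAPT, 40.3% in MNDA, 83.6% in PRTN3 and 82.5% in AZU1. Not every gene followed its composition. RNASE2 was lower in MOLM-13 P-bodies with 43.5% of codons ending in G or C, and S100A8 was higher with 67.7%.

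**Figure D2:**
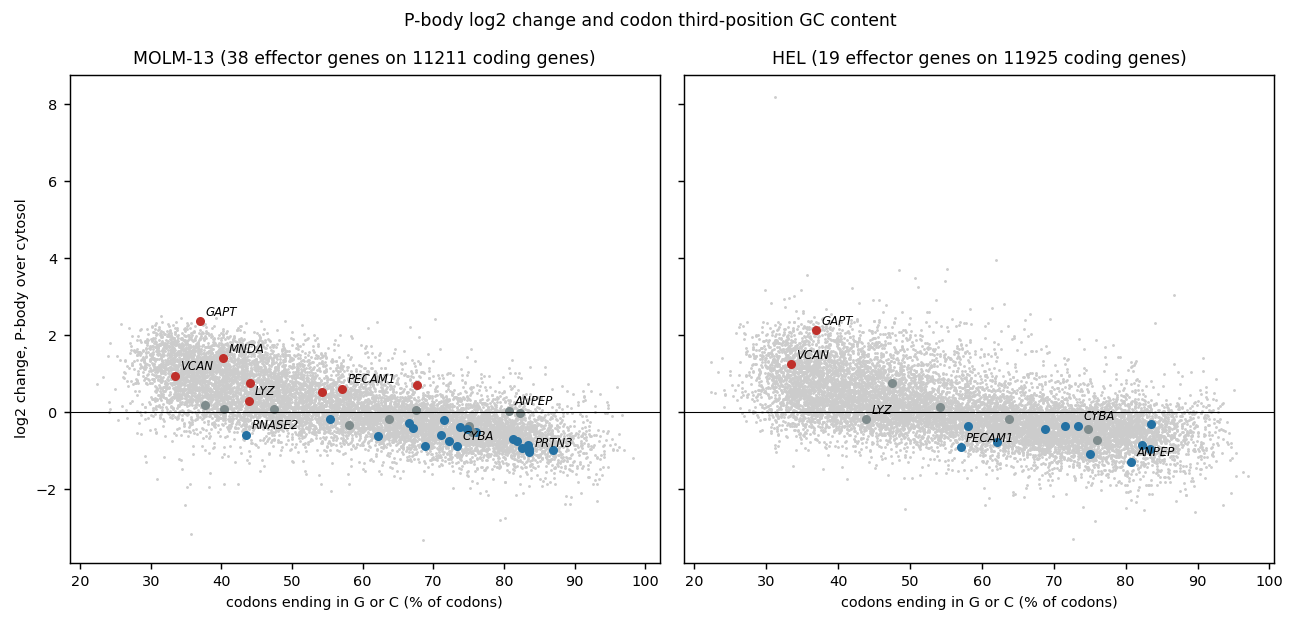
Log2 change, P-body over cytosol, against the share of codons ending in G or C in MOLM-13 (left) and HEL (right); grey dots are all coding genes tested, and large points are effector genes called higher (red), called lower (blue) or not called (grey). The effector genes lie along the slope of the grey cloud, with Spearman's rho of -0.76 in MOLM-13 and -0.67 in HEL.

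In a fit with a smooth trend of the log2 change on transcript length and GC content removed, 6 effector genes were called higher and 13 lower in MOLM-13, where 24.6% of all genes were higher and 23.1% lower. Of the main calls, 4 of 8 higher and 11 of 20 lower were kept. NCF1 and NCF4 became called higher, and LYZ and MS4A6A lower. In HEL, 2 were called higher and 7 lower in that fit, where 20.8% of all genes were higher and 21.2% lower. Both HEL genes called higher and 6 of 11 called lower were kept, and LYZ became called lower.

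All 5 mRNAs of primary granule proteins were lower in MOLM-13 P-bodies. PRTN3 encodes proteinase 3, a serine protease, and had 599 and 620 CPM in P-bodies, against 1282 and 1217 CPM in cytosol. Both P-body libraries were at about the same level and well below both cytosolic libraries, and PRTN3 was 2.05-fold lower (log2 -1.03, SE 0.043, edgeR adjusted p 1.5e-16). ELANE, neutrophil elastase, had 570 and 618 CPM in P-bodies, against 1215 and 1143 CPM in cytosol (log2 -0.99). AZU1, azurocidin, an antimicrobial protein without protease activity, had 666 and 676 CPM in P-bodies, against 1367 and 1212 CPM in cytosol (log2 -0.94). MPO, myeloperoxidase, had 562 and 583 CPM in P-bodies, against 995 and 936 CPM in cytosol (log2 -0.75). No P-body library overlapped a cytosolic library for any of the 5. CTSG, cathepsin G, was the least abundant and the least shifted. It had 35.7 and 35.5 CPM in P-bodies and 49.4 and 45.6 CPM in cytosol (log2 -0.42). Together the 5 took 0.212% ± 0.0057 of all counts in P-bodies and 0.547% ± 0.024 in cytosol of MOLM-13 (SD, n = 2 each). These shares are of library totals, a scale on which the median log2 change of all genes was -0.47. None of the 5 genes was tested in HEL, where the largest count of any of them in a library was 2. With the length and GC trend removed the log2 change of PRTN3 was -0.21, of ELANE -0.12 and of MPO -0.35, still called, while that of AZU1 was -0.035 and that of CTSG 0.051, not called.

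The mRNAs of other secreted and stored proteins went both ways. VCAN encodes versican, a large matrix proteoglycan secreted by monocytes. It had 57.1 and 58.1 CPM in MOLM-13 P-bodies, against 30.4 and 29.5 CPM in MOLM-13 cytosol (1.92-fold higher, log2 0.94, edgeR adjusted p 3.2e-09). In HEL it had 6.33 and 5.79 CPM in P-bodies, against 2.51 and 2.59 CPM in cytosol (2.37-fold higher, log2 1.24, edgeR adjusted p 0.00042). VCAN was thus higher in P-bodies of both lines, at a level far lower in HEL. CST3 encodes cystatin C, a secreted inhibitor of cysteine proteases. It had 121 and 128 CPM in MOLM-13 P-bodies, against 239 and 240 CPM in MOLM-13 cytosol (1.92-fold lower, log2 -0.94, edgeR adjusted p 1.9e-13). In HEL, CST3 had 25.5 and 31.6 CPM in P-bodies, against 34.7 and 36.5 CPM in cytosol (log2 -0.32, edgeR adjusted p 0.039). The fractions did not overlap in either line, but the gap was narrow in HEL, and the HEL call was lost without HEL P-body replicate 1 (log2 -0.17) or HEL cytosol replicate 2 (log2 -0.28) and with RLE size factors or DESeq2 (log2 -0.27 each).

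LYZ, lysozyme, had 196 and 195 CPM in MOLM-13 P-bodies, against 145 and 172 CPM in MOLM-13 cytosol (1.23-fold higher, log2 0.30). This small rise depended on the scaling, since scaling by library totals gave a log2 change of -0.14, and removal of the length and GC trend gave -0.23. In HEL, LYZ had 6.52 and 7.55 CPM in P-bodies and 8.28 and 7.73 CPM in cytosol and was not called (log2 -0.19), although with the trend removed it was called lower (log2 -0.59). An antisense gene overlaps 34.0% of the exonic bases of LYZ, and its reads cannot be told apart without a known strand setting. RNASE2, a ribonuclease of eosinophil and neutrophil-lineage granules also called eosinophil-derived neurotoxin, had 159 and 167 CPM in MOLM-13 P-bodies, against 225 and 262 CPM in cytosol (1.5-fold lower, log2 -0.58). It had 0 counts in all HEL libraries. With the trend removed VCAN was no longer called in MOLM-13 (log2 -0.19), and it remained called in HEL (log2 0.69).

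The S100 alarmins were low in MOLM-13 and nearly absent in HEL. S100A8 and S100A9 form calprotectin, the main cytosolic calcium-binding protein of neutrophils. S100A8 had 12.2 and 8.77 CPM in MOLM-13 P-bodies, against 6.94 and 6.05 CPM in cytosol (1.63-fold higher, log2 0.71, SE 0.21, edgeR adjusted p 0.0058). Its call was lost without MOLM-13 P-body replicate 1 (log2 0.46), without MOLM-13 cytosol replicate 2 (log2 0.62), under DESeq2 (log2 0.71) and with scaling by library totals (log2 0.27). S100A9 had 1.91 and 2.25 CPM in P-bodies and 1.62 and 4.12 CPM in cytosol. The 2 cytosolic libraries lay on either side of the P-body libraries, and S100A9 was not called (log2 -0.51). S100A9 was called lower without MOLM-13 cytosol replicate 1 (log2 -0.96) and with library totals (log2 -0.95).

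The subunits of the NADPH oxidase did not move together. CYBA encodes p22phox, which with gp91phox forms the membrane-bound cytochrome. CYBA had 345 and 352 CPM in MOLM-13 P-bodies, against 668 and 610 CPM in MOLM-13 cytosol (1.83-fold lower, log2 -0.87, edgeR adjusted p 4.8e-14). In HEL it had 45.8 and 68.1 CPM in P-bodies, against 70.5 and 75.1 CPM in cytosol (log2 -0.36, edgeR adjusted p 0.043). HEL P-body replicate 1 carried most of that difference, and without it the log2 change was -0.091 and not called. The HEL call was also lost without HEL cytosol replicate 2 (log2 -0.31), under DESeq2 (log2 -0.31) and with the trend removed (log2 -0.075). CYBB encodes gp91phox, the catalytic subunit that binds p22phox. It went the opposite way to CYBA in MOLM-13, with 17.2 and 20.5 CPM in P-bodies, against 14.2 and 12 CPM in cytosol (1.45-fold higher, log2 0.53, edgeR adjusted p 0.0049). The CYBB call was lost with scaling by library totals (log2 0.094) and without MOLM-13 cytosol replicate 2 (log2 0.43), and the change was -0.29 with the trend removed. In HEL, CYBB had 5.52 and 4.29 CPM in P-bodies and 4.28 and 4.61 CPM in cytosol, with overlapping libraries.

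NCF4, the p40phox cytosolic subunit, was slightly lower in P-bodies of both lines. It had 157 and 160 CPM in MOLM-13 P-bodies, against 180 and 184 CPM in cytosol (log2 -0.20), and 69.1 and 71.6 CPM in HEL P-bodies, against 86.4 and 92.4 CPM in cytosol (log2 -0.35). With the trend removed NCF4 was called higher in MOLM-13 (log2 0.17, edgeR adjusted p 0.012) and was not called in HEL (log2 0.023), and without MOLM-13 P-body replicate 1 the MOLM-13 call was lost (log2 -0.17). NCF1, the p47phox organiser subunit, had 2.70 and 1.5 CPM in HEL P-bodies, against 3.60 and 3.98 CPM in HEL cytosol (log2 -0.85, edgeR adjusted p 0.030). That call was lost without HEL P-body replicate 2 (log2 -0.41) and without HEL cytosol replicate 2 (log2 -0.77). It was also lost under DESeq2 (log2 -0.79) and with the trend removed (log2 -0.47). In MOLM-13, NCF1 had 36.3 and 33.1 CPM in P-bodies and 31.7 and 38.7 CPM in cytosol and was not called, although it was called higher with the trend removed (log2 0.53) and lower with library totals (log2 -0.47). NCF1 has the near-identical copies NCF1B and NCF1C. In MOLM-13 P-body replicate 1 these held 113 and 206 counts beside 342 counts for NCF1, so the split between them is uncertain.

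Among the receptors for colony-stimulating factors, none was called higher in P-bodies in either line. CSF3R, the G-CSF receptor, had 172 and 184 CPM in MOLM-13 P-bodies, against 237 and 267 CPM in cytosol (1.42-fold lower, log2 -0.50, edgeR adjusted p 6.7e-08), and the fractions did not overlap. CSF1R, the receptor of M-CSF, had 15.5 and 13.6 CPM in MOLM-13 P-bodies, against 19.9 CPM in both cytosolic libraries (log2 -0.45, edgeR adjusted p 0.0095). With the trend removed the changes of CSF3R and CSF1R were 0.031 and -0.024. The CSF1R call was also lost without MOLM-13 P-body replicate 2 (log2 -0.34), without MOLM-13 cytosol replicate 2 (log2 -0.43) and under DESeq2 (log2 -0.44). In HEL both receptors had at most 11 counts per library and neither was called. CSF2RB, the signalling subunit shared by the receptors of GM-CSF, IL-3 and IL-5, was abundant in HEL. It had 57.4 and 52.3 CPM in HEL P-bodies, against 108 and 125 CPM in HEL cytosol (2.12-fold lower, log2 -1.08, edgeR adjusted p 1.9e-07). In MOLM-13, CSF2RB had 6.69 and 5.69 CPM in P-bodies and 8.41 and 7.5 CPM in cytosol, lower in both libraries but not called (log2 -0.35, edgeR adjusted p 0.16). With library totals this was called (log2 -0.79), and with the trend removed it was 0.26 and not called.

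Of the Fc receptors and adaptors that signal through an immunoreceptor tyrosine-based activation motif (ITAM), 3 of 4 tested were lower in MOLM-13 P-bodies and 3 of 3 in HEL P-bodies. TYROBP encodes DAP12, an ITAM adaptor of many myeloid receptors. It had 122 CPM in both MOLM-13 P-body libraries, against 219 and 226 CPM in cytosol (1.82-fold lower, log2 -0.87, edgeR adjusted p 1.0e-12). In HEL, TYROBP had 11.5 and 13.1 CPM in P-bodies, against 17.3 and 16.3 CPM in cytosol (log2 -0.45, edgeR adjusted p 0.015). The fractions were separate in both lines, by a wider margin in MOLM-13. The HEL call of TYROBP was lost without HEL P-body replicate 1 (log2 -0.35), without HEL cytosol replicate 1 (log2 -0.41), under DESeq2 (log2 -0.40) and with the trend removed (log2 -0.27). FCGR2A, a low-affinity IgG receptor, had 32.9 and 28.6 CPM in HEL P-bodies, against 52.5 and 53.6 CPM in cytosol (1.72-fold lower, log2 -0.78, edgeR adjusted p 1.8e-05). In MOLM-13 it had 4.99 and 6.05 CPM in P-bodies, against 8.41 and 8.59 CPM in cytosol (log2 -0.63). The MOLM-13 call was lost without MOLM-13 P-body replicate 1 (log2 -0.47), without MOLM-13 cytosol replicate 2 (log2 -0.59) and under DESeq2 (log2 -0.62).

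FCER1G, the Fc receptor gamma chain, had 47.4 and 57.3 CPM in HEL P-bodies, against 71.4 and 62.7 CPM in cytosol (log2 -0.36, edgeR adjusted p 0.012). Without HEL P-body replicate 1 the change was -0.22, and without HEL cytosol replicate 1 it was -0.27, and neither was called. In MOLM-13, FCER1G had 12.6 and 12 CPM in P-bodies and 14.2 and 16.6 CPM in cytosol, not called (log2 -0.33, edgeR adjusted p 0.079). It was called lower with library totals (log2 -0.77) and with a filter of 5 CPM in 2 libraries (log2 -0.42), and was at 0.063 with the trend removed, not called. FCGR1A, the high-affinity IgG receptor, had 93.0 and 91.9 CPM in MOLM-13 P-bodies, against 106 and 104 CPM in cytosol. This was the smallest called difference among the 43 genes (log2 -0.19, edgeR adjusted p 0.018). The call was lost when any 1 of the 4 MOLM-13 libraries was left out, with log2 changes of -0.18 without P-body replicate 1, -0.16 without P-body replicate 2, -0.15 without cytosol replicate 1 and -0.18 without cytosol replicate 2. FCGR1A shares sequence with FCGR1B and FCGR1CP, and FCGR2A with FCGR2B and FCGR2C. All these copies carried reads in MOLM-13, so their levels are uncertain.

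PECAM1 was the gene with opposite calls in the 2 lines. It encodes CD31, an adhesion receptor of leukocytes, platelets and endothelium. PECAM1 had 140 CPM in both MOLM-13 P-body libraries, against 94.6 and 89.4 CPM in MOLM-13 cytosol (1.52-fold higher, log2 0.61, SE 0.064, edgeR adjusted p 1.0e-08). In HEL it had 214 and 201 CPM in P-bodies, against 392 and 391 CPM in HEL cytosol (1.89-fold lower, log2 -0.92, SE 0.070, edgeR adjusted p 3.7e-08). The 2 libraries of each fraction lay close together and the fractions were far apart in both lines, in opposite order. Scaling by library totals brought the MOLM-13 change to 0.17, still called. The direction and call of PECAM1 in both lines held under every alternative run.

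The 3 leukocyte integrin subunits were lower in MOLM-13 P-bodies. ITGB2, the common beta chain of the leukocyte integrins, had 118 and 110 CPM in MOLM-13 P-bodies, against 212 and 200 CPM in cytosol (1.80-fold lower, log2 -0.85, edgeR adjusted p 5.6e-12). In HEL, ITGB2 had 13.1 and 11.7 CPM in P-bodies, against 19.6 and 28.3 CPM in cytosol (log2 -0.95, edgeR adjusted p 0.00022), and the 2 cytosolic libraries were apart from each other. With the trend removed the HEL change was -0.33 and not called. ITGAX, the CD11c chain, had 36.9 and 34.5 CPM in MOLM-13 P-bodies, against 42.9 and 50.2 CPM in cytosol (log2 -0.39). The ITGAX change was -0.25 and not called without MOLM-13 cytosol replicate 2, and 0.031 with the trend removed. ITGAM, the CD11b chain, had 4.25 and 4.98 CPM in MOLM-13 P-bodies, against 6.20 and 7.5 CPM in cytosol (log2 -0.58, edgeR adjusted p 0.036). The ITGAM call was lost without MOLM-13 P-body replicate 1 (log2 -0.45), without MOLM-13 cytosol replicate 2 (log2 -0.41), under DESeq2 (log2 -0.57), without a filter on low counts (log2 -0.55) and with the trend removed (log2 -0.29). Neither alpha chain was tested in HEL, with at most 4 counts in a library.

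Of 6 lectin-type and inhibitory receptors tested in MOLM-13, 2 were lower in P-bodies and none was called higher. SIRPA, the inhibitory receptor for CD47, had 50.8 and 42.7 CPM in P-bodies, against 77.0 and 79.4 CPM in cytosol (1.67-fold lower, log2 -0.74, edgeR adjusted p 6.5e-08). LILRB4, an inhibitory leukocyte immunoglobulin-like receptor, had 102 and 100 CPM in P-bodies, against 117 and 127 CPM in cytosol (log2 -0.28), and -0.029 with the trend removed, not called. LILRB2, of the same family, CLEC7A (dectin-1, a receptor for fungal glucans) and CLEC12A, an inhibitory lectin-type receptor, were not called. Their log2 changes were 0.07, 0.18 and 0.09, at 1.42 to 8.17 CPM, with overlapping fractions. With library totals all 3 were negative (-0.37, -0.26 and -0.34), and with the trend removed CLEC7A was at -0.42 and CLEC12A at -0.44, none of them called. CD33, a sialic acid-binding inhibitory receptor, was present in both lines. It had 67.2 and 69.1 CPM in MOLM-13 P-bodies and 72.5 and 80.6 CPM in cytosol (log2 -0.17, 95% interval -0.33 to -0.01, edgeR adjusted p 0.060). In HEL, CD33 had 41.1 and 46.4 CPM in P-bodies and 51.5 and 46.9 CPM in cytosol (log2 -0.17, 95% interval -0.39 to 0.06). The P-body libraries lay below the cytosolic libraries in both lines, and neither difference was called. CD33 was called lower in MOLM-13 P-bodies without MOLM-13 cytosol replicate 1 (log2 -0.22), with a filter of 5 CPM in 2 libraries (log2 -0.26) and with library totals (log2 -0.61), and in HEL with library totals (log2 -0.49). SIRPA has a close relative, SIRPB1, which carried 271 to 336 counts per MOLM-13 library beside 360 to 656 for SIRPA.

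GAPT showed the largest shift toward P-bodies of the 43 genes, in both lines. It encodes a transmembrane adaptor that binds GRB2, described in B cells and myeloid cells. GAPT had 117 and 113 CPM in MOLM-13 P-bodies, against 22.9 and 21.8 CPM in MOLM-13 cytosol. It had 118 and 122 CPM in HEL P-bodies, against 29.1 and 25.9 CPM in HEL cytosol. In each line both P-body libraries lay far above both cytosolic libraries. The rise was 5.17-fold in MOLM-13 (log2 2.37, SE 0.087, edgeR adjusted p 1.0e-17) and 4.37-fold in HEL (log2 2.13, SE 0.096, edgeR adjusted p 1.4e-10). GAPT ranked 8 of 14089 tested genes by log2 change in MOLM-13 and 170 of 14772 in HEL. With the length and GC trend removed its log2 change was 1.52 in MOLM-13 and 1.37 in HEL, called in both.

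The other surface proteins of this group behaved differently from GAPT. CD86, a costimulatory ligand for T cells, had 24.0 and 21.6 CPM in MOLM-13 P-bodies, against 15.2 and 12.1 CPM in cytosol (1.69-fold higher, log2 0.75, edgeR adjusted p 9.8e-05). Its call was lost with scaling by library totals (log2 0.31) and with the trend removed (log2 0.18). CD86 had 0 counts in HEL. ANPEP, aminopeptidase N or CD13, had 64.4 and 58.4 CPM in HEL P-bodies, against 146 and 154 CPM in HEL cytosol (2.44-fold lower, log2 -1.29, edgeR adjusted p 7.8e-09). In MOLM-13 it had 2.12 and 1.66 CPM in P-bodies and 1.48 and 2.18 CPM in cytosol, from 10 to 20 counts per library, with overlapping fractions (log2 0.03, 95% interval -0.76 to 0.83). MS4A6A, a membrane-spanning protein of monocytes, had 41.2 and 34.7 CPM in MOLM-13 P-bodies and 33.1 and 38.0 CPM in cytosol and was not called (log2 0.09). It was called lower with the trend removed (log2 -0.29) and with library totals (log2 -0.35). In HEL, MS4A6A had 2.95 and 1.82 CPM in P-bodies and 1.02 and 1.79 CPM in cytosol (log2 0.75, edgeR adjusted p 0.11), and without HEL P-body replicate 2 it was called higher (log2 1.13).

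MNDA and PLD4 moved in opposite directions in MOLM-13. MNDA, the myeloid cell nuclear differentiation antigen, an interferon-inducible nuclear protein, had 297 and 290 CPM in P-bodies, against 114 and 109 CPM in cytosol (2.64-fold higher, log2 1.40, SE 0.056, edgeR adjusted p 5.8e-17). PLD4, an endosomal exonuclease for single-stranded nucleic acids, had 16.1 and 17.0 CPM in P-bodies, against 28.6 and 25.3 CPM in cytosol (1.62-fold lower, log2 -0.70, edgeR adjusted p 5.6e-05). Both were clear of overlap. With the trend removed MNDA was at 0.74 and called, while PLD4 was at -0.0034 and not called. In HEL neither passed the filter, with at most 3 counts in a library.

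**Figure D3:**
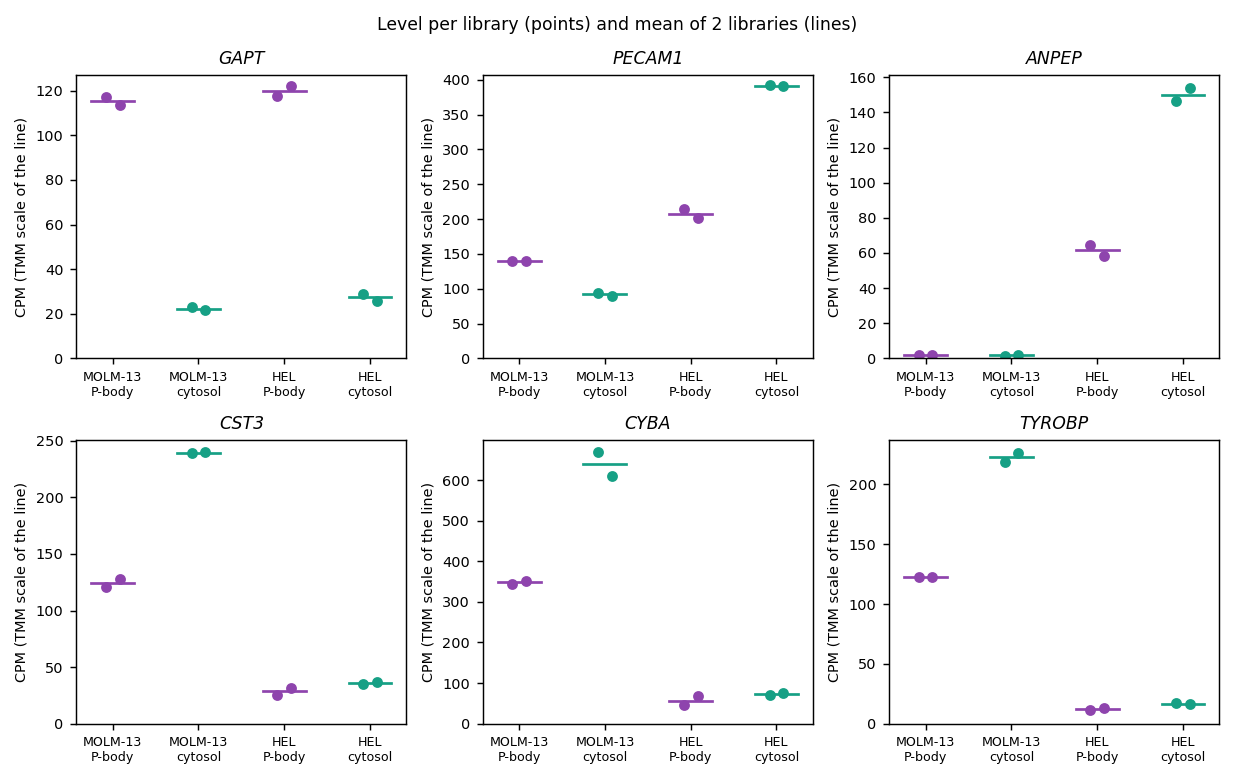
CPM per library (points) with the mean of 2 libraries (lines) in P-body (purple) and cytosol (green) of MOLM-13 and HEL, for GAPT, the gene with the largest rise in both lines, and for the 5 genes whose change differed between lines. PECAM1 was higher in P-bodies at 140 CPM in MOLM-13 and lower in P-bodies at 201 to 214 CPM in HEL.

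The change between fractions was compared between the lines for the 19 effector genes tested in both. The value is the MOLM-13 log2 change minus the HEL log2 change in a fit of all 8 libraries. Size factors of this fit were set over all 8 libraries, so these values do not equal differences of the within-line changes above. The median difference of all genes was -0.084 in this fit, -0.0052 with library totals and -0.0087 with RLE size factors. For 5 genes the difference was called, 2 higher and 3 lower, where 33.4% of 11984 genes were called, 14.1% higher and 19.4% lower. Without HEL P-body replicate 1 the count was 8, where 29.4% of 12256 genes were higher and 10.2% lower. Without HEL cytosol replicate 1 26.7% of all genes were higher and 7.77% lower, and without HEL cytosol replicate 2 24.6% and 7.58%. PECAM1 differed by 1.33 (SE 0.095, edgeR adjusted p 5.7e-09), with a rise in MOLM-13 and a fall in HEL. ANPEP differed by 1.13 (SE 0.35, edgeR adjusted p 0.015), with a fall in HEL and no called change at the low MOLM-13 level. That call was lost without MOLM-13 P-body replicate 1 (difference 0.94) or MOLM-13 cytosol replicate 1 (difference 0.90). CST3 differed by -0.82 (SE 0.13, edgeR adjusted p 4.6e-05), CYBA by -0.71 (SE 0.15, edgeR adjusted p 0.0010) and TYROBP by -0.61 (SE 0.13, edgeR adjusted p 0.0011). These 3 were lower in P-bodies of both lines, and more so in MOLM-13. The CYBA call was lost without HEL cytosol replicate 1 (difference -0.36) and under DESeq2 (difference -0.63). The TYROBP call was lost without HEL cytosol replicate 1 (difference -0.36), without HEL cytosol replicate 2 (difference -0.28) and with the trend removed (difference -0.23). For GAPT the difference was 0.05, with a 95% interval of -0.23 to 0.33, and it was called at 0.42 without HEL cytosol replicate 2.

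Taking both lines together, 2 of the 19 genes were called higher in P-bodies of both (GAPT and VCAN). In both lines 6 were called lower (CST3, CYBA, FCGR2A, ITGB2, NCF4 and TYROBP). The shares of all genes called alike in both lines were not counted, so these counts cannot be set against a background. PECAM1 was called in opposite directions. CYBB and LYZ were called higher, and CSF1R and CSF3R lower, in MOLM-13 but not in HEL. ANPEP, CSF2RB, FCER1G and NCF1 were called lower in HEL but not in MOLM-13. Of these 8 genes called in 1 line, the difference between lines was called for ANPEP. For CSF2RB (0.54), LYZ (0.29) and NCF1 (0.63) it was not called with all libraries, and with library totals it was called for CSF2RB (0.62). Without HEL P-body replicate 1 the differences of these genes were called, at 0.93 for CSF2RB, 0.50 for LYZ and 1.43 for NCF1. Without HEL cytosol replicate 1 they were called at 0.94, 0.54 and 0.99, and without HEL cytosol replicate 2 CSF2RB was called at 0.72 and LYZ at 0.63. The difference for MS4A6A was called without HEL P-body replicate 2 (-1.14, against -0.83 with all libraries). For VCAN the difference of -0.49 was not called, and it was called with the trend removed (-1.07) and with a filter of 5 CPM in 2 libraries (-0.56). CD33 and MS4A6A were called in neither line.

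A wider set of 102 related genes, outside the 43, was examined in 8 lists. In MOLM-13, 84 of them were tested, 19 were higher in P-bodies and 42 lower, with a median log2 change of -0.32, beside 32.4% higher and 28.5% lower among all genes tested. In HEL, 67 were tested, 12 were higher and 29 lower, with a median of -0.20, beside 27.5% and 27.1% among all genes tested. Of 13 tested mRNAs of other granule proteins, 3 were higher and 8 lower in MOLM-13. SERPINB1, an inhibitor of neutrophil proteases, was highest (log2 1.09) and CTSD, the lysosomal protease cathepsin D, was lowest (log2 -1.5). Of 7 other oxidase subunits and regulators, 3 were higher and 4 lower in MOLM-13. They ran between RAP1A, a small GTPase found with the cytochrome (log2 1.49), and RAC2, the GTPase that activates the oxidase (log2 -0.74).

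The 5 other S100 genes had 1 higher (S100A10, log2 0.19) and 4 lower in MOLM-13, with S100P lowest at -0.58. Of 8 tested cytokine receptors, 2 were higher and 2 lower, with IL6ST, the gp130 signal transducer, at 1.08 and TNFRSF1B, a TNF receptor, at -0.49. Of 11 Fc receptor and kinase genes, 3 were higher and 4 lower, with the kinase BTK at 1.24 and FCGRT, the neonatal Fc receptor, at -0.98. Of 9 adhesion genes, 2 were higher and 6 lower, with ITGA4, the alpha-4 integrin chain, at 1.92 and SELPLG, the P-selectin ligand, at -0.72. Of 12 other lectin and paired receptor genes, none was higher and 6 were lower, with CD300C at -0.71. Of 19 other surface and cytosolic genes, 5 were higher and 8 lower, with IFI16, a nuclear DNA sensor related to MNDA, at 1.78 and LAMP1, a lysosomal membrane protein, at -1.19. In HEL, IFI16 (log2 1.32), ITGA4 (log2 1.18), RAP1A (log2 1.16) and IL6ST (log2 0.88) were also called higher in P-bodies, and RAC2 was called lower (log2 -0.70).

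Most of these genes were at a much higher cytosolic level in MOLM-13 than in HEL. On a scale common to all 8 libraries, 38 genes were tested, and 32 were called higher and 5 lower in MOLM-13 than in HEL cytosol, where 44.2% of 17477 genes were called higher and 40.1% lower. Much of that count follows from the filter, because 19 of the 38 genes passed it in MOLM-13 alone and were therefore bound to be higher there. Of the 19 genes that passed in both lines, 13 were higher in MOLM-13, 5 were lower and GAPT was not called. The 44.2% and 40.1% also cover genes that did not pass in both lines. Cytosolic calls among all genes that passed in both lines were not counted, so these 19 genes have no matching background. In bulk libraries, fewer cells with an mRNA and less of it per cell cannot be told apart.

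Within MOLM-13 cytosol, granule mRNAs were the most abundant of the 43 per length of transcript. AZU1 had 1485 ± 112 CPM per kilobase, PRTN3 1274 ± 35.3 and ELANE 1199 ± 40.7 (SD, n = 2). The libraries of these 3 neighbours did not overlap, and CYBA followed at 616 ± 33.7. TYROBP had 376 ± 12.5, RNASE2 338 ± 39.2 and MPO 314 ± 10.6 CPM per kilobase, of which the libraries of RNASE2 and MPO overlapped. NCF4 at 116 ± 2.82 and LYZ at 108 ± 13.9 came next and did not differ beyond their spread. CTSG, also a primary granule gene, ranked 15 at 56.1 ± 2.64. In HEL cytosol the order was different, with FCER1G first at 117 ± 10.2 CPM per kilobase, then CYBA at 64.8 ± 3.16, PECAM1 at 55.4 ± 0.058 and NCF4 at 52.6 ± 2.69 (SD, n = 2).

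Granule mRNAs were at or near 0 in HEL. AZU1 had 1420 and 1276 CPM in MOLM-13 cytosol and 0 and 0.0558 CPM in HEL cytosol, where 1 read was counted. PRTN3, ELANE, MPO, CTSG and RNASE2 had 0 counts in HEL cytosol. Against a floor of 3 counts over both HEL libraries, PRTN3 was at least 14441-fold higher in MOLM-13, ELANE at least 13617-fold, MPO at least 11157-fold, RNASE2 at least 2843-fold and CTSG at least 549-fold. RNASE2 had 234 and 276 CPM in MOLM-13 cytosol. SIRPA (at least 908-fold), CD86 (at least 156-fold), S100A8 (at least 74.7-fold), CLEC12A (at least 40.8-fold) and S100A9 (at least 34.7-fold) also had 0 counts in HEL cytosol. S100A8 had 7.21 and 6.37 CPM in MOLM-13 cytosol. These bounds cover counting error only.

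MNDA had 118 and 115 CPM in MOLM-13 cytosol and 0.0654 and 0.0558 CPM in HEL cytosol, from 1 read in each HEL library. Its ratio was 1933, with a 95% exact counting interval of 534 to 15978. LILRB4 had 122 and 134 CPM in MOLM-13 cytosol and 0.131 and 0.112 CPM in HEL cytosol. CSF3R had 246 and 281 CPM in MOLM-13 cytosol and 0.719 and 0.614 CPM in HEL cytosol, from 11 counts in each HEL library. Both were far above HEL, on very few HEL reads. FCGR1A, ITGAX, ITGAM and PLD4 likewise had at most 5 HEL cytosolic counts in all, against 104 to 1582 in MOLM-13. CLEC7A and LILRB2 had 1 HEL cytosolic count each.

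Other genes had more reads in HEL. CYBA had 694 and 642 CPM in MOLM-13 cytosol and 67.9 and 72.7 CPM in HEL cytosol (9.5-fold higher, edgeR adjusted p 6.9e-17). TYROBP had 228 and 239 CPM in MOLM-13 and 16.7 and 15.7 CPM in HEL cytosol (14.4-fold higher, edgeR adjusted p 1.6e-19). ITGB2 had 220 and 211 CPM in MOLM-13 and 18.8 and 27.4 CPM in HEL cytosol (9.25-fold higher, edgeR adjusted p 2.5e-16). MS4A6A had 34.3 and 40.0 CPM in MOLM-13 and 0.981 and 1.73 CPM in HEL cytosol (26.8-fold higher, edgeR adjusted p 2.1e-14). In each of these genes both MOLM-13 libraries lay far above both HEL libraries. CSF1R, with 22 HEL cytosolic counts in all, was 30.9-fold higher. The other fold differences were 21.5 for LYZ, 12.6 for VCAN, 10.1 for NCF1, 7.28 for CST3, 3.16 for CYBB, 2.21 for NCF4 and 1.69 for CD33.

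A smaller set was higher in HEL. ANPEP had 1.53 and 2.29 CPM in MOLM-13 cytosol and 141 and 149 CPM in HEL cytosol (74.1-fold lower in MOLM-13, edgeR adjusted p 7.2e-19). CSF2RB had 8.74 and 7.90 CPM in MOLM-13 and 104 and 121 CPM in HEL cytosol (13.5-fold lower, edgeR adjusted p 1.5e-16). FCGR2A had 8.74 and 9.05 CPM in MOLM-13 and 50.5 and 51.9 CPM in HEL cytosol (5.74-fold lower, edgeR adjusted p 4.4e-13). All 3 are surface receptors or enzymes, and in each the libraries of a line lay together and apart from the other line. FCER1G had 14.7 and 17.5 CPM in MOLM-13 and 68.7 and 60.8 CPM in HEL cytosol (4.0-fold lower, edgeR adjusted p 6.7e-12). PECAM1 had 98.3 and 94.2 CPM in MOLM-13 and 378 CPM in both HEL cytosolic libraries (3.93-fold lower, edgeR adjusted p 1.1e-16).

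GAPT stood apart by its likeness between the lines. It had 23.8 and 22.9 CPM in MOLM-13 cytosol and 28.0 and 25.1 CPM in HEL cytosol (log2 -0.18, 95% interval -0.40 to 0.04, edgeR adjusted p 0.12). The difference was called with RLE size factors (log2 -0.25), library totals (log2 -0.24) or no filter (log2 -0.47), and also without HEL P-body replicate 1 (log2 -0.32) or HEL cytosol replicate 2 (log2 -0.40).

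**Figure D4:**
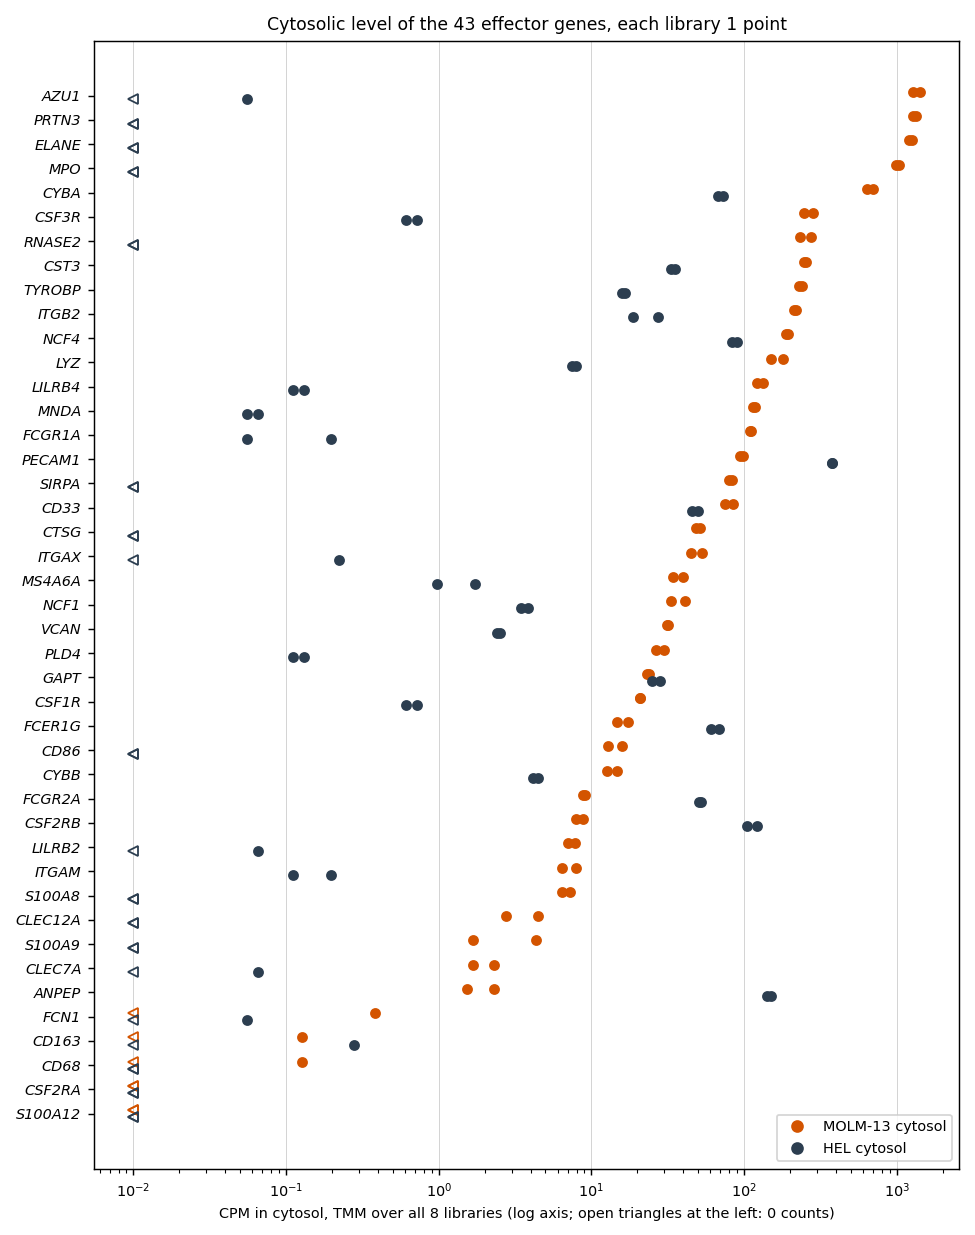
CPM of the 43 effector genes in the cytosolic libraries of MOLM-13 (orange) and HEL (dark blue), on a log axis, each point 1 library; open triangles at the left mark libraries with 0 counts. The 4 granule genes at the top lie at or above 986 CPM in MOLM-13 and at or near 0 in HEL, while ANPEP, CSF2RB, FCGR2A, FCER1G and PECAM1 lie higher in HEL.

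PRTN3 and MNDA were both abundant in MOLM-13 and at or near 0 in HEL, and moved in opposite directions between fractions. Their promoter windows, the 250 bases before the RefSeq gene start, are given from RefSeq on GRCh38.p14, plus strand, 5′ to 3′. The RefSeq start lies 39 bases downstream of the GENCODE 29 start in PRTN3 and 34 bases downstream in MNDA. Capitals mark GAGGAA, a sequence of the kind bound by the myeloid factor PU.1, searched on both strands.
PRTN3, chr19:840749-840998: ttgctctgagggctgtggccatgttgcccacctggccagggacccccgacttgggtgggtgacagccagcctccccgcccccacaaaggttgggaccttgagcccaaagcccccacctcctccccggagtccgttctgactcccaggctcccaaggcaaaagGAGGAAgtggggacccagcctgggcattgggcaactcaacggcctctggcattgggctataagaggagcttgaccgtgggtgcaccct
MNDA, chr1:158831101-158831350: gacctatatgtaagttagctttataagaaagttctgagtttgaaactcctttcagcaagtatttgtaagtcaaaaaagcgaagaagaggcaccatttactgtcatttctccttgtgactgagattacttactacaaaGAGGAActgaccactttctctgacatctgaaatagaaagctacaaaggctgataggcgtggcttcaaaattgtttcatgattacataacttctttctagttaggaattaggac
The match starts 88 bases upstream of the RefSeq start in PRTN3 and 113 bases upstream in MNDA. GAGGAA on either strand occurs in 27 of 45 windows of the effector genes (60.0%), which belong to 33 genes, and in 23.6% of 35116 promoter windows in the table. The match is a description of letters and not evidence of a bound site.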

How the data were processed

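The deposited values were raw read counts per gene symbol, in 1 table for each line. Per the submitters' processing notes, the tools were STAR, DESeq2 and SAMtools 1.12, on GRCh38. The program that counted reads, its annotation, strand setting and filters were not given in the sources used here. Total RNA was isolated with the miRNeasy Micro kit and prepared with the NEBNext Ultra II kit, per the labels. Each table had 61544 rows, and 112 symbols on 1348 rows were left out because a symbol did not name 1 row. These rows held 0.0193% to 0.0477% of counts. The group called cytosol is the fraction titled "cyto".

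Fractions of a line were compared by the quasi-likelihood test of edgeR 4.0.16 (R 4.3.3) with TMM size factors, after filterByExpr (smallest count 10). P-values were adjusted over all genes tested in that line by the Benjamini-Hochberg method and called below 0.05. Standard errors are the log2 change divided by the square root of the F statistic. Cytosolic levels and the difference between lines came from 1 fit of all 8 libraries, the difference being restricted to genes that passed the filter in both lines. CPM are TMM-scaled, within a line for fractions and over all libraries for levels between lines. Alternatives were RLE factors, library totals, DESeq2 1.42.0, 2 other filters, a replicate block, each library left out, and removal of a loess trend (span 0.3) on transcript length and GC content. The scripts were tested on simulated counts.

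Chi-square per degree of freedom between the 2 libraries of a group was 1.87 to 6.15, above sampling noise in every group. Counts of 0 were set against a floor of 3 counts over the group.

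The 43 genes, the related lists and the checks were chosen with earlier results of these data known. Every gene is accounted for. Libraries are given for the called genes with the greatest rise and fall of each role, for genes that differ between lines, and for cytosol for the most abundant gene of each role and those higher in HEL. Further values were added. Of each related list the called genes with the greatest rise and fall in MOLM-13 are named. Gene spans, lengths and codons came from GENCODE 29, which held 42 of the 43 genes on 1 row each. Promoter windows were matched for 33 genes.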

Additional observations from a re-analysis of the deposited data

Results flagged for a closer look

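The change between P-body and cytosol differed between the 2 lines for 5 effector genes, by a test of the difference itself. That was an edgeR quasi-likelihood test of the MOLM-13 log2 change minus the HEL log2 change. Its size factors were set over all 8 libraries, and the median difference of all genes was -0.084. The differences were 1.33 for PECAM1, 1.13 for ANPEP, -0.815 for CST3, -0.709 for CYBA and -0.61 for TYROBP. These 5 of 19 tested genes stand beside 33.4% of all 11984 genes called. Leaving out 1 library ended the call of ANPEP (0.94 without MOLM-13 P-body replicate 1 and 0.90 without MOLM-13 cytosol replicate 1), CYBA (-0.36 without HEL cytosol replicate 1) and TYROBP (-0.36 without HEL cytosol replicate 1 and -0.28 without HEL cytosol replicate 2). For PECAM1 both MOLM-13 P-body libraries were above both MOLM-13 cytosolic libraries, and both HEL P-body libraries were below both HEL cytosolic libraries. PECAM1 and ANPEP were lower in MOLM-13 than in HEL cytosol, and CST3, CYBA and TYROBP were higher. The part of the cytosolic level in these differences was not tested.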

How the results depend on the processing

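The count of effector genes higher in MOLM-13 P-bodies was 4 with library totals in place of 8, and 26 were lower in place of 20. All 20 lower calls were kept, and CD33, CSF2RB, FCER1G, MS4A6A, NCF1 and S100A9 were added. Library totals moved the median of all genes to -0.47 in MOLM-13 and -0.39 in HEL. With the trend on length and GC content removed, 13 were lower in MOLM-13 in place of 20, and 7 in HEL in place of 11. In HEL, 7 were also lower under DESeq2 and without HEL P-body replicate 1. Dropping HEL P-body replicate 1 also raised the differences called between lines to 8, against 5. Leaving out each library in turn gave 6 to 8 higher and 15 to 21 lower in MOLM-13, 2 to 3 higher and 7 to 10 lower in HEL, and 4 to 8 differences between lines. In cytosol it gave 32 higher each time and 5 to 6 lower. The 2 libraries of each fraction share only a number across fractions. The correlation of their deviations was -0.0075 in MOLM-13 and 0.17 in HEL. With a replicate block the counts were 8 higher and 20 lower in MOLM-13, 2 higher and 11 lower in HEL, and no call of an effector gene changed.

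Among genes called in either fit, signs turned in MOLM-13 with the trend removed for CTSG (0.051), LYZ (-0.23), VCAN (-0.19), CYBB (-0.29), NCF1 (0.53), NCF4 (0.17), CSF3R (0.031), ITGAX (0.031) and MS4A6A (-0.29), and with library totals for LYZ (-0.14) and MS4A6A (-0.35). In HEL NCF4 turned with the trend removed (0.023), and the difference for ITGB2 turned without HEL cytosol replicate 1 (leaving out each library gave -0.17 to 0.44, main value -0.086). Values not called in either fit also turned, besides those that turned with 1 library left out. In MOLM-13 these were CSF2RB (0.26), FCER1G (0.063), CLEC7A (-0.42) and CLEC12A (-0.44) with the trend removed, CLEC7A (-0.26), CLEC12A (-0.34), LILRB2 (-0.37) and ANPEP (-0.40) with library totals, LILRB2 (-0.026) with the 5 CPM filter, and NCF1 (0.0050) with no filter. In HEL they were CYBB (-0.54), CSF1R (0.20) and CD33 (0.021) with the trend removed, and CYBB (-0.18) with library totals. Uncalled differences between lines that turned under at least 1 alternative were those of NCF4, FCGR2A, GAPT, CSF1R, CSF3R, FCER1G and CD33. The cause was not tested. GAPT and PECAM1 kept their calls in both lines, and MNDA in MOLM-13, under every alternative run. The trend removal was not run on cytosol between lines. In MOLM-13, CLEC7A, CLEC12A and ANPEP had 10 to 42 counts per library, which limits what could be detected in them.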
